A study of Mus musculus with 11 samples.

Results

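The genes of WNT signalling were followed in podocytes sorted from healthy and nephritic mice. They were chosen by symbol, with earlier results of these data known. They are the protein-coding mouse genes for WNT ligands, Frizzled receptors, LRP, ROR and RYK co-receptors, and DKK and SFRP inhibitors. Genes for R-spondins, Dishevelled proteins, β-catenin and its destruction complex, and TCF/LEF factors were included as well. The rule gave 58 genes of the 34547 genes measured, and the results below concern the 37 with a mean of at least 1 CPM (counts scaled to library size) over the 11 libraries. *Axin2*, at 1.04 CPM, lay just inside that limit and *Wnt9a*, at 0.904 CPM, just outside.

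The study asked how podocytes respond to nephrotoxic serum nephritis (NTN), an antibody-driven glomerulonephritis, and whether the Toll-like receptor adaptor MYD88 in podocytes matters for that response. Bulk RNA sequencing was performed on 4 groups of C57BL/6 mice (C57BL/6N in the methods of the study). Untreated PodTOM (n = 3) and PodTOM NTN (n = 3) carried the podocin-promoter knock-in Podocin.2a.iCre.2a.mT, which gives Cre and the red fluorophore mTomato to podocytes, on wild-type *Myd88*. Untreated MyD88pko (n = 2) and MyD88pko NTN (n = 3) carried the same knock-in with *Myd88* flox/flox, so that Cre was present in all groups and the deletion was limited to cells with an active podocin promoter. NTN was induced in male mice aged 8 to 16 weeks with 9 µl of sheep serum per g body weight on 2 consecutive days, and organs were taken on day 5, while the ages given for the study as a whole run from 8 to 52 weeks. How many mice made 1 library is not given in the sources used here, so the tests below measure the spread between libraries.

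WNT proteins are secreted, lipid-modified ligands that bind Frizzled receptors. With LRP5 or LRP6 as co-receptor they stop the destruction complex of APC, AXIN and GSK3β from marking β-catenin for degradation, and β-catenin then acts with TCF/LEF factors on target genes. Other ligands, WNT5A foremost, act through ROR and RYK receptors on cell shape and polarity without β-catenin. Podocytes need a balance here: both loss and excess of β-catenin activity have been linked to injury of the glomerular filter in mice.

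The libraries held 14563271 to 32764201 estimated counts, with 14563271 to 19483013 untreated and 20080140 to 32764201 with NTN. Every NTN library was thus deeper than every untreated one, and the part of depth in the results below was not tested. *Myd88* was at 6.49 to 14.1 CPM in the PodTOM libraries and at 0.200 to 0.976 CPM in the MyD88pko libraries, as the labels require. The 16 podocyte markers summed to 34900 to 59400 CPM in every library, against at most 649 CPM for any of the lists for endothelial, mesangial and smooth muscle, parietal epithelial, leukocyte and proximal tubule cells, and no marker of these lists was at 0 in all libraries. In PodTOM the podocyte sum went from 46370 to 59400 CPM untreated to 34900 to 40150 CPM in NTN (9 of 16 markers lower and 1 higher), the mesangial and smooth muscle sum from 145 to 225 CPM to 417 to 649 CPM (4 of 12 higher), and the endothelial sum from 128 to 151 CPM to 175 to 307 CPM (7 of 12 higher). In MyD88pko the mesangial and smooth muscle sum went from 133 to 140 CPM to 454 to 623 CPM (1 of 12 higher). The podocyte sum there was 48050 to 50790 CPM untreated and 35070 to 50190 CPM in NTN, which overlapped (5 of 16 lower and 2 higher). The endothelial sum of 130 to 169 CPM untreated also overlapped the 165 to 185 CPM of NTN (2 of 12 higher). Vomeronasal receptor genes, normally active in the vomeronasal organ, had a summed level of 62.4 to 98.6 CPM without and of 141 to 443 CPM with NTN, so that this signal also moved with NTN. So did the number of genes above 0, from 18420 to 19996 in untreated libraries to 24502 to 28672 with NTN. The mitochondrial share of counts was 4.99% to 6.29% untreated and 3.35% to 4.88% with NTN. The part of other cells and of these signals in the results below was not tested beyond leaving libraries out, and in bulk samples fewer cells of a type and less RNA per cell cannot be told apart.

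Ranked per length, in TPM (transcript counts scaled by length and library size), *Ctnnb1*, which encodes β-catenin, had the highest mean, 274 TPM, followed by the kinase gene *Gsk3b* at 135 TPM, the co-receptor gene *Lrp6* at 128 TPM and *Apc* at 102 TPM. Much of the *Ctnnb1* level came from Ctnnb1-215, an intron-retaining transcript of 1292 bases at 128 CPM, beside the coding Ctnnb1-201 of 3623 bases at 104 CPM. Without the weighting by length, *Ctnnb1* (251 CPM) was below *Lrp6* (486 CPM), *Gsk3b* (340 CPM) and *Apc* (314 CPM). The most abundant Dishevelled gene was *Dvl3* at 56.2 TPM, the most abundant TCF/LEF gene *Tcf7l2* at 54.6 TPM, and of the atypical receptors *Ryk* reached 45.0 TPM. The Frizzled genes ranged from 2.11 TPM (*Fzd1*) to 30.9 TPM (*Fzd2*). Among the secreted members, the leading ligand was *Wnt4* at 14.4 TPM and the leading inhibitor *Dkk3* at 13.6 TPM. The only R-spondin gene above the limit was *Rspo1* at 22.0 TPM. These values lay within the range of the Frizzled genes. Of the 19 ligand genes 13 had a mean under 1 CPM, as had 2 of 10 Frizzled genes, 3 of 4 R-spondin genes, 1 of 3 ROR and RYK genes and 2 of 8 inhibitor genes, and 10 of these 21 genes were too low to be tested.

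**Figure D1:**
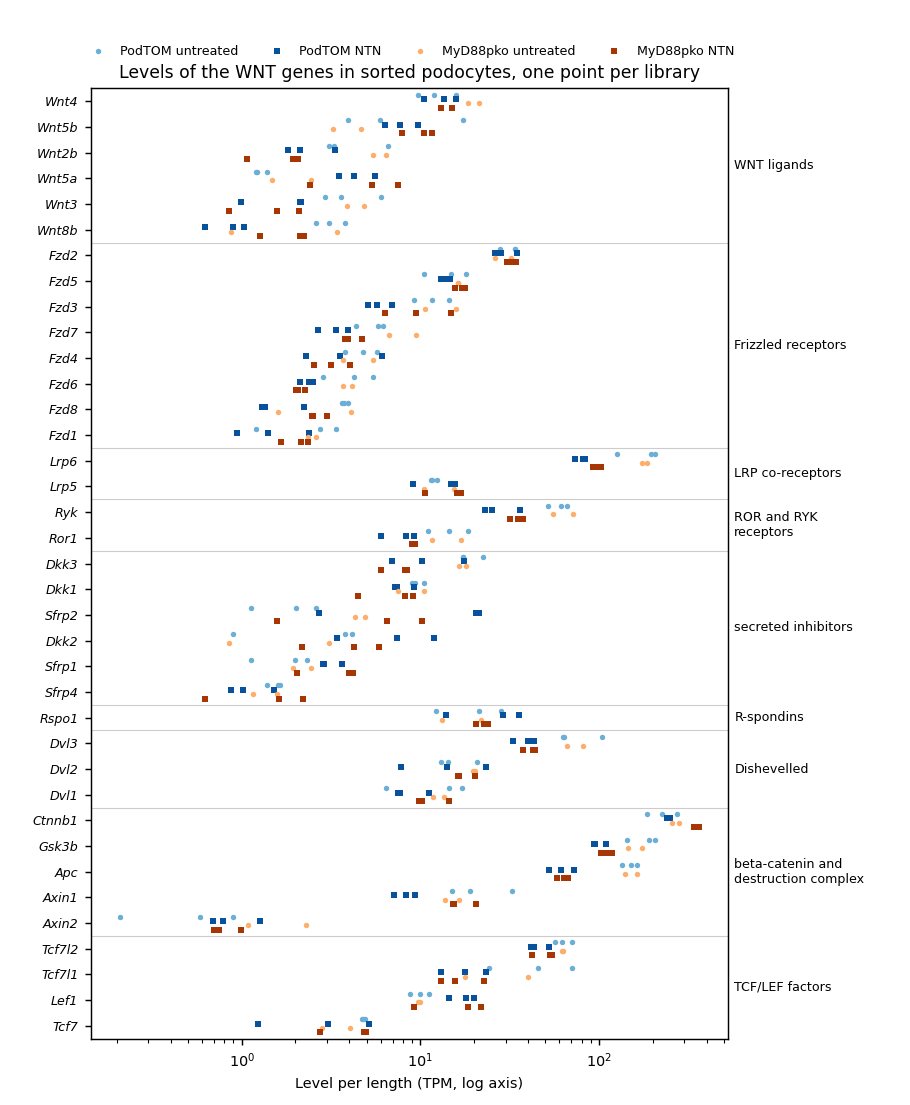
Level of each of the 37 genes per length (x axis, TPM, log scale), grouped by role. Each point is 1 library, with circles for untreated and squares for NTN, blue for PodTOM and orange for MyD88pko. The mean levels run from 0.933 TPM for Axin2 to 274 TPM for Ctnnb1.

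In NTN the co-receptor gene *Lrp6*, the receptor gene *Ryk* and the destruction complex gene *Apc* were at 0.499 to 0.572 times their untreated PodTOM level, the ligand gene *Wnt5a* reached 4.10 times and the transcription factor gene *Lef1* 2.04 times it. Across the 37 genes, the edgeR quasi-likelihood test at an adjusted p under 0.05 called 5 higher in PodTOM NTN than in untreated PodTOM (*Wnt5a*, *Lef1*, *Sfrp2*, *Dkk2* and *Sfrp1*), 8 lower (*Lrp6*, *Ryk*, *Ror1*, *Fzd3*, *Dvl3*, *Apc*, *Axin1* and *Wnt8b*), and did not call 24. These are 13.5% and 21.6% of the members, beside 15.9% higher and 9.93% lower among all 21200 genes tested, or 15.2% and 13.1% among the 15827 that averaged 1 CPM or more. The members' median log2 change was -0.21, beside 0.19 over all genes and 0.02 over those averaging 1 CPM or more. In MyD88pko, whose libraries are separate, 2 members were higher (*Wnt5a* and *Lef1*) and 9 lower (*Lrp6*, *Ryk*, *Fzd3*, *Fzd7*, *Dvl3*, *Apc*, *Wnt2b*, *Wnt3* and *Dkk3*). That is 5.41% and 24.3% of the members, beside 11.3% higher and 8.22% lower of all genes and 12.2% and 10.9% of those averaging 1 CPM or more. The share of higher members was thus near or below that of all genes, and the share of lower members above it. The calls depended on single libraries. In MyD88pko the lower count was 3 and 2 without untreated replicate 1 and 2, 5 and 4 without NTN replicate 1 and 2, and 6 without PodTOM NTN replicate 1, and the higher count was 0 without untreated replicate 1 or NTN replicate 2. In PodTOM the higher count was 3 without untreated replicate 2 or 3, NTN replicate 1 or 2 or MyD88pko NTN replicate 1, and the lower count was 5 without untreated replicate 3 or NTN replicate 1 or 2. Without the 3 NTN libraries with most vomeronasal signal (PodTOM NTN replicate 1, MyD88pko NTN replicates 1 and 2), 3 higher (*Lef1*, *Sfrp2*, *Wnt5a*) and 3 lower (*Apc*, *Lrp6*, *Ryk*) calls remained in PodTOM and 0 in MyD88pko, where 1 NTN library was then left.

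**Figure D2:**
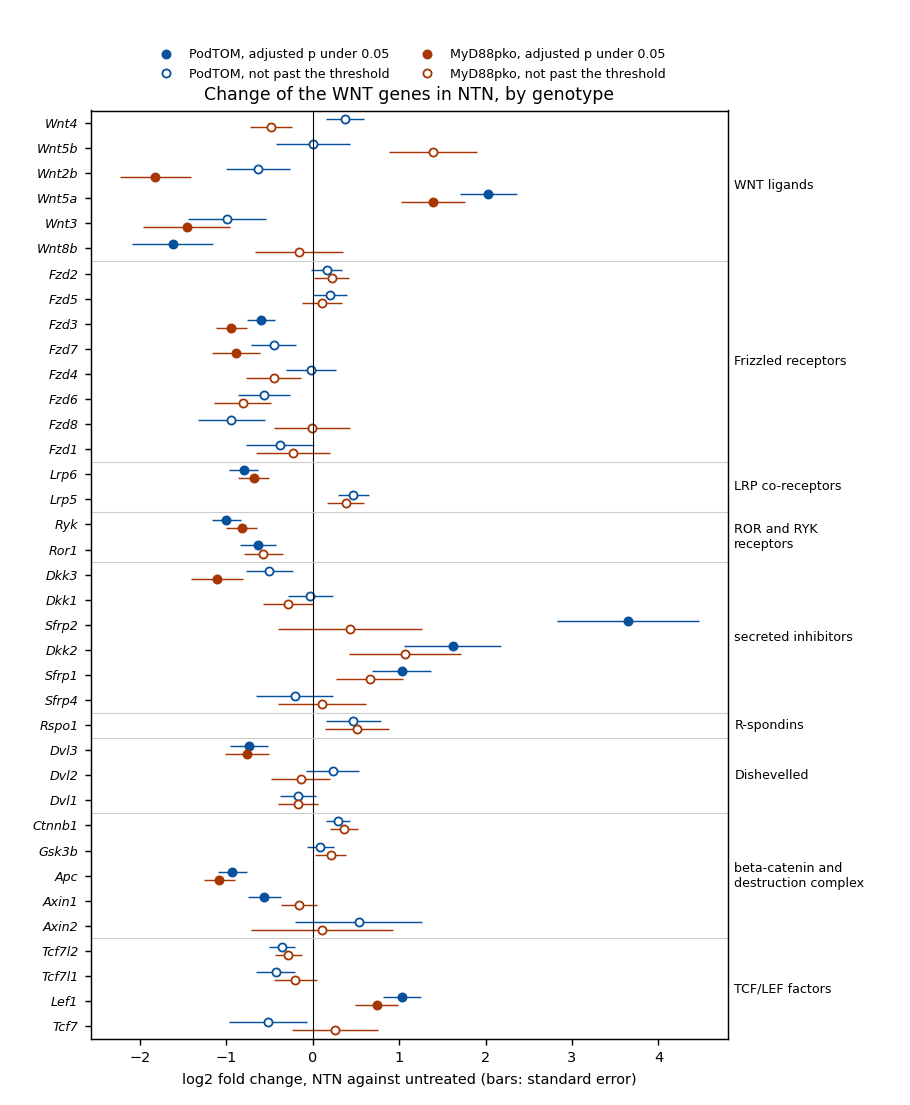
Log2 fold change in NTN against untreated podocytes (x axis) for the 37 genes, with standard errors as bars, in PodTOM (blue) and MyD88pko (orange). Filled points passed an adjusted p of 0.05, 5 higher and 8 lower in PodTOM and 2 higher and 9 lower in MyD88pko.

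Among the ligands, *Wnt5a* (chr14:28504750-28527448, GRCm38), the prototype of β-catenin-independent WNT signals, was the member with the smallest adjusted p. In order of replicate number it was at 5.64, 4.40 and 4.21 CPM in untreated PodTOM, 22.9, 19.4 and 15.9 CPM in PodTOM NTN, 5.46 and 9.15 CPM in untreated MyD88pko and 19.4, 27.2 and 10.8 CPM in MyD88pko NTN. Every NTN library exceeded every untreated one, with the lowest NTN value in MyD88pko replicate 3. The log2 fold change was 2.03 ± 0.33 (SE; edgeR adjusted p = 0.00047) in PodTOM and 1.39 ± 0.37 (adjusted p = 0.016) in MyD88pko. The PodTOM call held under all 19 alternatives, and the MyD88pko call was lost without untreated replicate 1 (1.06, adjusted p = 0.16) or NTN replicate 2 (1.05, adjusted p = 0.076).

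*Wnt4*, the most abundant ligand gene and a ligand needed for nephron formation in the embryo, was at 28.4, 20.8 and 32.8 CPM in untreated and 25.4, 37.1 and 43.6 CPM in NTN PodTOM, and at 40.1 and 47.4 CPM and 27.8, 32.1 and 34.2 CPM in MyD88pko. The groups overlapped in PodTOM, and neither comparison passed the test (0.37 ± 0.22, adjusted p = 0.21; -0.48 ± 0.24, adjusted p = 0.15). *Wnt2b* was at 5.79, 5.35 and 10.7 CPM and at 3.28, 6.89 and 3.93 CPM in untreated and NTN PodTOM. In MyD88pko its 9.17 and 11.2 CPM stood well above the 3.15, 3.36 and 2.16 CPM of NTN. Only the MyD88pko difference passed (-1.82 ± 0.41, adjusted p = 0.0065, against -0.63 ± 0.37, adjusted p = 0.22, in PodTOM), and it was lost without untreated MyD88pko replicate 2 (-1.67, adjusted p = 0.071). *Wnt3* went from 10.4, 4.56 and 5.41 CPM to 1.73, 4.24 and 4.22 CPM in PodTOM and from 7.61 and 6.28 CPM to 1.29, 3.23 and 3.02 CPM in MyD88pko, without overlap in either genotype. Its call in MyD88pko (-1.46 ± 0.50, adjusted p = 0.048) lay at the threshold and was lost without any of 8 libraries (untreated PodTOM replicate 3, PodTOM NTN replicates 1 and 2 and all 5 of MyD88pko; adjusted p from 0.051 to 0.21), and the PodTOM value was -0.99 ± 0.45 (adjusted p = 0.11). *Wnt8b* was at 4.94, 5.24 and 6.29 CPM in untreated and 1.73, 1.35 and 2.28 CPM in NTN PodTOM, and at 5.92 and 1.54 CPM and 3.76, 3.62 and 2.65 CPM in MyD88pko. The groups were apart in PodTOM alone (-1.62 ± 0.47, adjusted p = 0.019; in MyD88pko -0.16 ± 0.51, adjusted p = 0.85), where the call was lost without untreated replicate 3 (adjusted p = 0.057) or NTN replicate 1 or 2 (adjusted p = 0.066 and 0.064). The remaining ligand above the limit, *Wnt5b*, had log2 fold changes of 0.00 and 1.39 with adjusted p of 1.0 and 0.066. Below the limit, *Wnt9a*, singled out after its values were seen, was called higher in both genotypes (adjusted p = 0.019 and 0.020), from 0 to 0.212 CPM untreated to 0.332 to 2.70 CPM in NTN.

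The co-receptor LRP6, which passes the signal from Frizzled to the destruction complex, had the most abundant receptor transcript. *Lrp6* (chr6:134446476-134566965) was at 526, 687 and 677 CPM in untreated PodTOM, 322, 386 and 374 CPM in PodTOM NTN, 636 and 589 CPM in untreated MyD88pko and 342, 329 and 472 CPM in MyD88pko NTN. All 6 NTN values lay below all 5 untreated ones. The log2 fold change was -0.80 ± 0.17 (edgeR adjusted p = 0.0026) in PodTOM, held under all 19 alternatives, and -0.68 ± 0.18 (adjusted p = 0.016) in MyD88pko, where it was lost without either untreated replicate (adjusted p = 0.13 and 0.091) or without NTN replicate 1 or 2 (adjusted p = 0.066 and 0.062). Its relative *Lrp5* showed the other sign without passing the test, at 0.47 ± 0.18 (adjusted p = 0.065) and 0.38 ± 0.21 (adjusted p = 0.19). Of its counts, 76.1% to 97.1% were on Lrp5-204, annotated as subject to nonsense-mediated decay, with 837 coding bases. The transcript Lrp5-201, with 4842 coding bases, was at 0 to 9.61 CPM (-2.81 ± 2.36 and -2.75 ± 2.49, not called).

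RYK and ROR1 are receptors with a single membrane span that bind WNT5A. *Ryk* (chr9:102834917-102908305) was nearly constant at 74.6, 76.1 and 74.4 CPM in untreated PodTOM and at 36.99, 34.2 and 41.2 CPM in PodTOM NTN, against 69.9 and 83.5 CPM and 37.5, 39.0 and 53.6 CPM in MyD88pko. The groups did not overlap in either genotype. It fell by 1.00 ± 0.17 on the log2 scale (adjusted p = 0.00058) in PodTOM and by 0.82 ± 0.18 (adjusted p = 0.0057) in MyD88pko, the latter lost without untreated replicate 2 (-0.69, adjusted p = 0.11). *Ror1* was at 36.5, 42.9 and 53.1 CPM and at 28, 22.6 and 35.2 CPM in untreated and NTN PodTOM, and at 35.0 and 51.9 CPM and 27.6, 27.7 and 32.8 CPM in MyD88pko. These groups were also apart, but only narrowly, and only PodTOM passed (-0.63 ± 0.21, adjusted p = 0.038; MyD88pko -0.57 ± 0.23, adjusted p = 0.093). That call was lost without any of untreated replicates 2 and 3, PodTOM NTN replicates 1 and 2 or MyD88pko NTN replicate 1, with values of -0.68, -0.47, -0.60, -0.52 and -0.62. The direction of change thus differed between the ligand gene *Wnt5a* and the genes of these receptors.

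Of the 8 Frizzled genes, 1 was lower in PodTOM NTN, 2 were lower in MyD88pko NTN and 0 were higher in either by edgeR. Among all genes averaging 1 CPM or more, 13.1% and 10.9% were lower and 15.2% and 12.2% higher. DESeq2 called 0 Frizzled genes higher as well. An unadjusted edgeR p under 0.05 was found for 2 and 3 Frizzled genes, beside 8555 and 7727 of all 21200 genes tested. *Fzd2*, the most abundant, was at 69.8, 51.5 and 60.9 CPM untreated and 59.5, 81.9 and 62.5 CPM in NTN in PodTOM, and at 49.3 and 61.9 CPM and 63.0, 56.3 and 75.6 CPM in MyD88pko. These groups overlapped (0.16 ± 0.18 and 0.22 ± 0.20, adjusted p = 0.53 and 0.44). *Fzd3*, known for guiding axons and planar polarity, was at 67.8, 68.7 and 75.3 CPM and at 46.2, 43.4 and 49.7 CPM in untreated and NTN PodTOM, and at 106 and 73.4 CPM and 50.5, 42.4 and 47.6 CPM in MyD88pko. The groups were apart in both genotypes (-0.60 ± 0.16, adjusted p = 0.013; -0.94 ± 0.18, adjusted p = 0.0020), and the MyD88pko call was lost without untreated replicate 1 (-0.65, adjusted p = 0.076). It was also lost with length-scaled counts (-0.34, adjusted p = 0.36) and with limma on log2(TPM + 1) (-0.39, adjusted p = 0.45). In TPM the MyD88pko groups overlapped, at 15.8 and 10.6 untreated and 9.43, 14.8 and 6.38 in NTN. The PodTOM call was lost with limma as well (-0.87, adjusted p = 0.054). *Fzd7* was at 14.9, 10.1 and 14.0 CPM and 8.85, 7.90 and 11.8 CPM in PodTOM, which overlapped, and at 22.1 and 16.1 CPM and 10.8, 8.78 and 11.2 CPM in MyD88pko, which did not. Only MyD88pko passed (-0.89 ± 0.28, adjusted p = 0.036; PodTOM -0.45 ± 0.26, adjusted p = 0.20), and without either untreated replicate, without PodTOM NTN replicate 1 or without MyD88pko NTN replicate 1 or 2 it had adjusted p from 0.065 to 0.29. The other 5 Frizzled genes had log2 fold changes between -0.94 (*Fzd8*) and 0.20 (*Fzd5*) in PodTOM, none past the threshold.

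TCF/LEF factors bind DNA at the letters CTTTGAT or CTTTGTT, so these were searched on both strands in the 250 bases before each RefSeq start site (build GRCm38.p6). Of 32851 windows of all genes 8.06% held a match, and of 33 windows belonging to 25 of the 37 members 4 did, or 12.1%: those of *Dkk1*, *Fzd7*, *Tcf7l2* and *Wnt5b*. Of the 17 members called in either genotype 10 had a window (*Dkk2*, *Dvl3*, *Fzd7*, *Lef1*, *Ror1*, *Ryk*, *Sfrp2*, *Wnt2b*, *Wnt3* and *Wnt8b*), and *Fzd7* was the 1 with a match, AACAAAG on the strand shown, 130 bases before the start. That window, chr1:59481897-59482146 on the plus strand, is printed with the match in capitals, as the only match among the called members. This 1 of 10 counts genes, which can have more than 1 window each, so it is not directly comparable with the 8.06% of single windows. *Fzd7* was called in MyD88pko alone, and that call was lost in 9 of 19 alternatives. A match describes the letters and does not show binding.
Fzd7: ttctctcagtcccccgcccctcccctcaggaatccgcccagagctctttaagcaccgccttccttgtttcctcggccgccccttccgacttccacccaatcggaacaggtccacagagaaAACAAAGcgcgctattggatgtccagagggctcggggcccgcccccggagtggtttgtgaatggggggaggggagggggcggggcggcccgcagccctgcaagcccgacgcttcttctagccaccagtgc

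Of the secreted inhibitor genes, *Sfrp2*, *Dkk2* and *Sfrp1* were higher in PodTOM NTN, and *Dkk3* was lower in MyD88pko NTN. SFRP proteins trap WNT ligands outside the cell, and DKK1 and DKK2 block LRP5 and LRP6, whereas DKK3 is a relative without that established role. *Sfrp2* (chr3:83766321-83774316) was at 0.695, 2.54 and 0.691 CPM in untreated PodTOM, 21.9, 25.4 and 3.41 CPM in PodTOM NTN, 3.84 and 4.41 CPM in untreated MyD88pko and 9.78, 5.08 and 1.89 CPM in MyD88pko NTN. The PodTOM groups did not overlap, but NTN replicate 3 lay far below the others, and in MyD88pko the groups overlapped. The log2 fold change was 3.65 ± 0.82 (adjusted p = 0.0077) in PodTOM and 0.43 ± 0.83 (adjusted p = 0.74) in MyD88pko. The PodTOM difference passed in 18 of 19 alternatives, and the highest adjusted p among the 19 was 0.05, at the threshold. Values ran from 3.20 (without NTN replicate 2) to 4.56 (without untreated replicate 2) when single libraries were left out. *Dkk2* was at 1.85, 7.73 and 6.91 CPM and at 25.2, 17.8 and 8.25 CPM in untreated and NTN PodTOM, and at 5.92 and 1.67 CPM and 10.9, 7.97 and 5.07 CPM in MyD88pko. It passed narrowly in PodTOM (1.62 ± 0.56, adjusted p = 0.047), with the highest value in NTN replicate 1, and not in MyD88pko (1.07 ± 0.65, adjusted p = 0.24).

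*Sfrp1* was at 5.79, 2.49 and 4.34 CPM and at 9.18, 8.24 and 8.20 CPM in untreated and NTN PodTOM, and at 4.36 and 5.68 CPM and 8.77, 9.39 and 5.60 CPM in MyD88pko. The PodTOM groups were apart (1.03 ± 0.34, adjusted p = 0.038) and those of MyD88pko overlapped (0.66 ± 0.39, adjusted p = 0.23). The PodTOM calls of *Dkk2* and *Sfrp1* were each lost under 10 of 19 alternatives. Both were lost without untreated PodTOM replicate 2 or 3, PodTOM NTN replicate 1 or 2 or MyD88pko NTN replicate 1. *Dkk2* was also lost without untreated PodTOM replicate 1 or MyD88pko NTN replicate 2, and *Sfrp1* without PodTOM NTN replicate 3. The adjusted p then ran from 0.056 to 0.17 for *Dkk2* and from 0.054 to 0.15 for *Sfrp1*. *Dkk3*, the most abundant inhibitor gene by TPM, was at 42.7, 29.5 and 28.5 CPM and at 33.8, 22.1 and 15.2 CPM in PodTOM, which overlapped, and at 30.96 and 28.9 CPM and 14.2, 10.2 and 17.1 CPM in MyD88pko, which did not. It was lower in MyD88pko NTN (-1.11 ± 0.30, adjusted p = 0.017; lost without either untreated replicate or without NTN replicate 2, adjusted p = 0.097, 0.085 and 0.072) and not called in PodTOM (-0.50 ± 0.27, adjusted p = 0.18), although it was without NTN replicate 1 (-0.83, adjusted p = 0.047). *Dkk1* and *Sfrp4* had log2 fold changes between -0.29 and 0.11 in both genotypes. *Rspo1*, whose product raises the number of Frizzled and LRP receptors at the surface, was at 27.7, 10.1 and 18.3 CPM and at 34.5, 27.7 and 15.1 CPM in PodTOM, and at 15.5 and 12.3 CPM and 19.8, 20.0 and 19.7 CPM in MyD88pko. It did not pass in either (0.47 ± 0.32 and 0.51 ± 0.37, adjusted p = 0.30 and 0.33).

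Downstream of the receptors, *Dvl3*, the most abundant gene for the Dishevelled scaffold, was at 146, 79.1 and 77.6 CPM in untreated PodTOM, 57.6, 69.4 and 54.3 CPM in PodTOM NTN, 84.8 and 106 CPM in untreated MyD88pko and 53.5, 47.5 and 67.6 CPM in MyD88pko NTN. The groups did not overlap in either genotype, with untreated PodTOM replicate 1 well above the rest. The log2 fold change of -0.74 ± 0.22 (adjusted p = 0.024) in PodTOM dropped to -0.41 (adjusted p = 0.11) without that library, and the call was also lost without NTN replicate 1 or 3 (adjusted p = 0.079 and 0.065). In MyD88pko it was -0.76 ± 0.25 (adjusted p = 0.039; 0.070 to 0.28 without either untreated library, PodTOM NTN replicate 1 or MyD88pko NTN replicate 1 or 2). *Dvl1* and *Dvl2* had log2 fold changes between -0.17 and 0.23, none past the threshold.

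*Apc*, whose product is the scaffold of the destruction complex, was at 527, 368 and 351 CPM in untreated PodTOM, 219, 232 and 201 CPM in PodTOM NTN, 419 and 493 CPM in untreated MyD88pko and 214, 193 and 238 CPM in MyD88pko NTN. All 6 NTN values were below all 5 untreated ones. It fell by 0.93 ± 0.17 on the log2 scale (edgeR adjusted p = 0.00097) in PodTOM and by 1.08 ± 0.18 (adjusted p = 0.00088) in MyD88pko, and the latter was the MyD88pko call that no single left-out library ended. *Axin1*, the other scaffold, was at 24.0, 30.9 and 27.97 CPM and at 20.0, 16.2 and 20.1 CPM in untreated and NTN PodTOM, and at 30.4 and 26.7 CPM and 26.3, 23.4 and 27.2 CPM in MyD88pko. The PodTOM groups were apart (-0.56 ± 0.19, adjusted p = 0.037) and the MyD88pko groups overlapped (-0.16 ± 0.21, adjusted p = 0.61). The PodTOM call was lost without untreated replicate 2 or 3, NTN replicate 1 or 2 or MyD88pko NTN replicate 1 (adjusted p from 0.057 to 0.10). *Axin2*, a target gene that reports β-catenin activity in many tissues, stayed at 0.440 to 1.73 CPM in all libraries (0.53 ± 0.74 and 0.11 ± 0.82, adjusted p = 0.63 and 0.94). *Ctnnb1* itself was at 200.4, 200.6 and 224 CPM and at 235, 266 and 264 CPM in PodTOM, and at 224 and 245 CPM and 289, 270.4 and 341 CPM in MyD88pko. The NTN values were above the untreated ones in each genotype, but the difference did not pass (0.29 ± 0.14 and 0.36 ± 0.16, adjusted p = 0.13 and 0.11). With a filter at a mean of 5 CPM it did (0.42 and 0.50, adjusted p = 0.0044 and 0.0036), under which the median of all genes also moved up, by 0.13 and 0.15. In MyD88pko it also passed with DESeq2 (0.39, adjusted p = 0.022), with only the libraries compared (0.45, adjusted p = 0.045) and without PodTOM NTN replicate 1 (0.45, adjusted p = 0.029). Of its transcripts, Ctnnb1-215, which retains an intron and has no reading frame, was higher in both genotypes (0.75 ± 0.17, adjusted p = 0.031; 0.95 ± 0.19, adjusted p = 0.023) and the full coding transcript Ctnnb1-201 was not (0.16 ± 0.16 and 0.25 ± 0.18, adjusted p = 0.60 and 0.44).

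**Figure D3:**
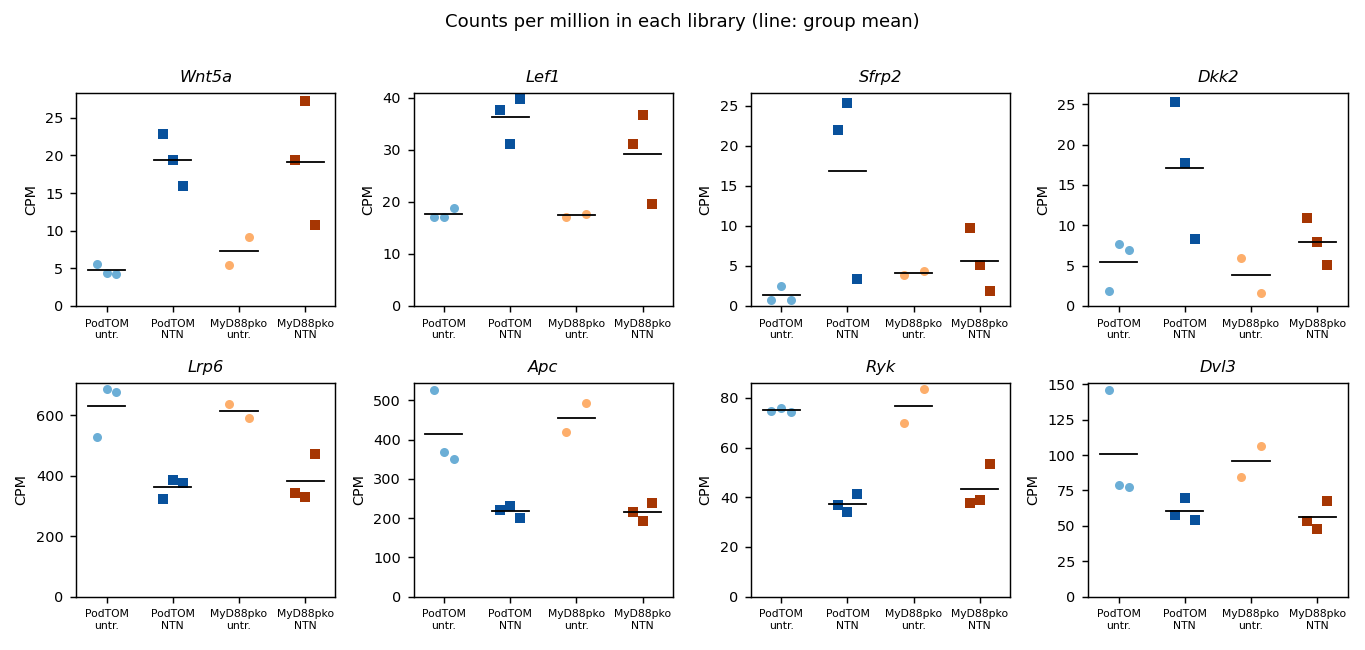
CPM (y axis, from 0) of 8 members in each of the 11 libraries, with the group mean as a line. Wnt5a, Lef1, Sfrp2 and Dkk2 (upper row) were higher and Lrp6, Apc, Ryk and Dvl3 (lower row) lower in PodTOM NTN than in untreated PodTOM, and Sfrp2 and Dkk2 varied most between NTN libraries.

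For *Gsk3b*, the kinase of the destruction complex, the gene total hid a change of estimated transcript levels. Summed over transcripts, untreated PodTOM had 312 to 343 CPM and PodTOM NTN 295 to 413 CPM, without a call in either genotype (0.09 ± 0.16 and 0.21 ± 0.18, adjusted p = 0.71 and 0.41). Transcript Gsk3b-202, singled out after its values were seen, was at 34.0, 61.6 and 43.5 CPM in untreated PodTOM, 2.55, 1.58 and 3.64 CPM in PodTOM NTN, 36.7 and 41.2 CPM in untreated MyD88pko and 2.27, 3.45 and 5.30 CPM in MyD88pko NTN. The highest NTN value was far below the lowest untreated one. The log2 fold change was -4.16 ± 0.42 (adjusted p = 0.00087) in PodTOM, called under all 14 alternatives with values from -4.45 to -3.90 when single libraries were left out, and -3.40 ± 0.43 (adjusted p = 0.0026) in MyD88pko. Its share of the gene's counts went from 10.4% to 20.95% in untreated PodTOM to 0.445% to 0.907% in NTN. The main coding transcript Gsk3b-201 was at 170 to 236 CPM untreated and 264 to 354 CPM in NTN in PodTOM (0.58 ± 0.17, adjusted p = 0.076) and was higher in MyD88pko NTN (0.82 ± 0.19, adjusted p = 0.042).

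The transcripts differ in an additional coding exon. Gsk3b-202 has 1299 coding bases in 12 exons, against 1260 in the 11 exons of Gsk3b-201, and exon 9, chr16:38217113-38217151 on the plus strand of GRCm38, adds 39 bases or 13 codons within the kinase domain, known from the GSK3β2 splice form of neurons. The pseudoaligner kallisto divides reads by the k-mers they hold, and of the 1720 stretches of 31 bases in Gsk3b-202, 67 occur in no other *Gsk3b* transcript of the files. All 67 overlap this exon, and none of them occurs in any other transcript that was matched. The following bases hold these stretches, printed with the extra exon in capitals and the 30 bases on either side in lower case. Reads shared with other transcripts are divided by estimation, so the level of Gsk3b-202 need not rest on these bases alone. Reads over them were not examined here.
Gsk3b-202: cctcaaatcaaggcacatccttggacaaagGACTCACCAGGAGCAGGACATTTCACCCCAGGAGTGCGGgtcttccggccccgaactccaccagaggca

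Gsk3b-202 has 1750 bases and Gsk3b-201 has 8303, so a shift of counts from the former to the latter lowers a sum per length. Gsk3b-203, of 2186 bases, also had a negative log2 fold change in PodTOM (-0.42), without a call. The limma fit moved the median of all genes by -0.24 in PodTOM. How much each of these shaped the values per length was not tested. In TPM the gene went from 143 to 206 in untreated to 94.2 to 109 in NTN PodTOM, and with limma on log2(TPM + 1) it was called lower in both genotypes (-0.83, adjusted p = 0.0022; -0.52, adjusted p = 0.049), the reverse of the sign in counts. Of the 113 transcripts of members tested, 4 were higher and 6 lower in PodTOM NTN, beside 3.07% and 2.33% of all 58398 transcripts, and 2 were higher and 5 lower in MyD88pko NTN, beside 2.59% and 1.69%. The higher ones in PodTOM were Wnt5a-201, Lef1-204, Sfrp2-201 and Ctnnb1-215, and the lower ones Gsk3b-202, Lrp6-201, Lrp6-204, Apc-203, Apc-205 and Ryk-203. These counts rested on single libraries. Without PodTOM NTN replicate 1, 0 were higher and 1 lower by edgeR, and the 1 was Gsk3b-202. The higher count was 1 without untreated PodTOM replicate 1, and 2 without untreated PodTOM replicate 3, PodTOM NTN replicate 2 or MyD88pko NTN replicate 1. The lower count was 2 without untreated PodTOM replicate 2 or PodTOM NTN replicate 3, and 3 without untreated PodTOM replicate 3 or PodTOM NTN replicate 2.

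**Figure D4:**
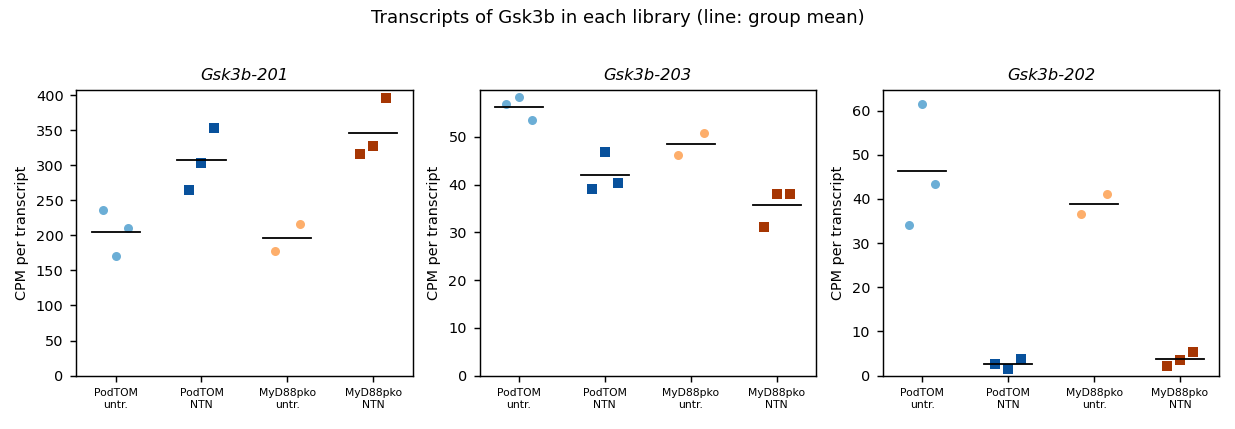
CPM (y axis, from 0) of the 3 most abundant transcripts of Gsk3b in each library, with the group mean as a line. Gsk3b-202, which carries the extra 39-base exon, spanned 34.0 to 61.6 over 5 untreated libraries and 1.58 to 5.30 over 6 NTN libraries. In PodTOM the coding transcript Gsk3b-201 had a log2 fold change of 0.58 and the intron-retaining Gsk3b-203 of -0.42, against -4.16 for Gsk3b-202.

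At the end of the pathway, *Lef1* (chr3:131110471-131224356), a factor that turns β-catenin into transcription and is itself a target gene, was at 17.2, 17.2 and 18.9 CPM in untreated PodTOM, 37.7, 31.1 and 39.9 CPM in PodTOM NTN, 17.1 and 17.7 CPM in untreated MyD88pko and 31.2, 36.8 and 19.6 CPM in MyD88pko NTN. All NTN libraries exceeded all untreated ones, MyD88pko NTN replicate 3 by little, and that library also had the lowest vomeronasal signal of the NTN libraries, 141 CPM. The log2 fold change was 1.03 ± 0.22 (edgeR adjusted p = 0.0033) in PodTOM, past the threshold in all alternatives but limma on log2(TPM + 1) (0.75, adjusted p = 0.073). In MyD88pko it was 0.74 ± 0.25 (adjusted p = 0.045), lost without any of 7 single libraries, namely untreated PodTOM replicates 2 and 3, PodTOM NTN replicate 2 and the MyD88pko replicates other than NTN replicate 3, with values from 0.55 to 0.77 and adjusted p from 0.052 to 0.20. Without the 3 NTN libraries with most vomeronasal signal it was 0.21 (adjusted p = 0.78). The coding transcript Lef1-204 (1152 coding bases) carried the rise, from 10.1 to 12.3 CPM to 23.8 to 34.1 CPM in PodTOM (1.34 ± 0.28, adjusted p = 0.025), while the intron-retaining Lef1-205 was at 3.85 to 6.28 CPM untreated and 5.20 to 7.98 CPM in NTN.

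*Tcf7l2*, the most abundant factor of this family, was at 56.3, 53.0 and 57.1 CPM and at 46.8, 43.0 and 40.2 CPM in untreated and NTN PodTOM, and at 57.0 and 53.3 CPM and 43.8, 42.0 and 50.4 CPM in MyD88pko. The groups were apart in both genotypes but the small difference did not pass (-0.36 ± 0.15 and -0.28 ± 0.16, adjusted p = 0.084 and 0.22), except with DESeq2 (-0.38, adjusted p = 0.030) or limma on TPM (-0.45, adjusted p = 0.048) in PodTOM. *Tcf7l1* and *Tcf7* were not called. Per length, *Tcf7l2* had a mean of 54.6 TPM and *Lef1* of 13.8 TPM over all libraries.

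Whether MYD88 in podocytes affected these genes was asked in 3 ways, and edgeR called 0 of 37 members in each. Between MyD88pko and PodTOM in NTN, where 0.0613% of all genes were called, the members' log2 differences ran from -1.60 (*Sfrp2*) to 0.90 (*Wnt8b*), the smallest adjusted p was 0.62 (*Dkk3*, -0.77 ± 0.27), and 3 members had an unadjusted p under 0.05. Between the untreated groups, where 0.0189% of all genes were called, they ran from -1.27 (*Wnt5b*) to 1.61 (*Sfrp2*), with a smallest adjusted p of 0.76 (*Wnt4*) and 2 unadjusted p under 0.05. For the difference between the NTN responses of the genotypes, where 0.00472% were called, the values ran from -3.21 ± 1.12 (*Sfrp2*, adjusted p = 0.75) to 1.46 ± 0.69 (*Wnt8b*, adjusted p = 0.85), with 3 unadjusted p under 0.05. DESeq2 likewise called 0 in each. Over all 21200 genes tested, 1280, 1187 and 1232 had an unadjusted edgeR p under 0.05 in these 3 comparisons, in the same order. For the 7 members called in both genotypes, the difference of responses was 0.12 ± 0.25 for *Lrp6*, 0.18 ± 0.25 for *Ryk*, -0.34 ± 0.24 for *Fzd3*, -0.03 ± 0.33 for *Dvl3*, -0.15 ± 0.25 for *Apc*, -0.65 ± 0.48 for *Wnt5a* and -0.28 ± 0.33 for *Lef1*. A difference of the size of these errors would not have been detectable, and with 2 untreated MyD88pko libraries a larger one could be missed as well. The members called in a single genotype (*Sfrp2*, *Dkk2*, *Sfrp1*, *Ror1*, *Axin1*, *Wnt8b*, *Fzd7*, *Wnt2b*, *Wnt3* and *Dkk3*) were therefore not shown to respond differently. Without a filter on low counts *Sfrp2* was called in all 3, at -1.61 (adjusted p = 0.0026) in NTN. Titles of the libraries differ by genotype in their prefix, so a batch that follows it cannot be told apart from genotype.

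Other genes of the pathway, from a list of 57, changed in both directions in PodTOM NTN, with 4 of 55 tested higher and 16 lower, beside 15.9% and 9.93% of all genes (in MyD88pko 1 and 12, beside 11.3% and 8.22%). Of the 57, 49 averaged 1 CPM or more. Among all such genes 15.2% were higher and 13.1% lower in PodTOM NTN, and 12.2% and 10.9% in MyD88pko NTN. The higher ones were *Adgra2* (GPR124, a co-receptor for WNT7 signals in vessels), from a mean of 11.5 to 40.6 CPM (log2 1.83 ± 0.22, adjusted p = 3.1e-05), *Nkd1*, *Cer1* and *Cxxc4*. Lower were *Csnk1a1*, the casein kinase that primes β-catenin, from 1178 to 643 CPM (-0.87 ± 0.17, adjusted p = 0.0019), and the R-spondin receptor gene *Lgr4*, from 447 to 247 CPM (-0.86 ± 0.15, adjusted p = 0.00076). The DKK receptor gene *Kremen1* went from 301 to 161 CPM (-0.91 ± 0.17, adjusted p = 0.0016). The tankyrase gene *Tnks2*, whose product promotes the degradation of AXIN, went from 401 to 236 CPM (-0.77 ± 0.15, adjusted p = 0.0016). The co-repressor gene *Tle4* (-0.95 ± 0.17, adjusted p = 0.0010), the co-activator gene *Crebbp* (-0.70 ± 0.15, adjusted p = 0.0034) and *Tnks* (-0.73 ± 0.17, adjusted p = 0.0052) were lower too. The median of this list was -0.16, beside 0.19 over all genes and 0.02 over those averaging 1 CPM or more. Its lower genes included both activators and inhibitors of the pathway. Of 15 planar cell polarity genes 0 were higher by edgeR and 2 lower in PodTOM NTN, *Fuz* (-0.99 ± 0.26, adjusted p = 0.012) and *Ankrd6* (-0.65 ± 0.23, adjusted p = 0.044). Among all genes averaging 1 CPM or more, 15.2% were higher and 13.1% lower. In MyD88pko 0 of the 15 were higher and 1 lower, beside 12.2% and 10.9%.

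Of 24 genes known as WNT targets in other tissues, 4 of them members, 22 were tested, and 6 were higher and 3 lower in PodTOM NTN (2 and 3 in MyD88pko), beside the same 15.9% and 9.93% of all genes (11.3% and 8.22%). Their median log2 change in PodTOM was 0.53, beside 0.19 over all genes. *Ccnd1*, which encodes cyclin D1, went from a mean of 10.6 to 52.7 CPM (2.31 ± 0.20, adjusted p = 2.6e-06) and was higher in MyD88pko as well (2.15, adjusted p = 2.6e-05). *Plaur*, the urokinase receptor gene, went from 1.56 to 6.47 CPM (2.06 ± 0.44, adjusted p = 0.0031) and *Cd44* from 2.64 to 7.18 CPM (1.44 ± 0.43, adjusted p = 0.023), and *Lef1*, *Nkd1* and *Tnfrsf19* completed the higher genes. *Jun* (1955 to 857 CPM, -1.19 ± 0.20, adjusted p = 0.00061), *Fosl1* (27.3 to 7.85 CPM, -1.79 ± 0.47, adjusted p = 0.014) and *Znrf3* were lower. The genes *Nkd1*, *Notum*, *Rnf43*, *Znrf3*, *Lgr5*, *Apcdd1* and *Wif1* are also on the list of other pathway genes, so *Nkd1* and *Znrf3* were counted in both lists. *Cd44* is also on the parietal epithelial list, whose summed level in PodTOM went from 113 to 130 CPM to 184 to 218 CPM. *Axin2* was not called, and *Sp5* was at 0 in every library. How far *Cd44* followed the parietal markers was not tested.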

How the data were processed

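Podocytes from 11 libraries in 4 groups were analysed. The sources give cutadapt 3.5 for trimming and kallisto 0.43.1 for pseudoalignment to mouse Ensembl 90 transcripts (GRCm38), with transcript tests in sleuth 0.3.0 under R 3.5.0. The files deposited by the authors hold estimated counts per transcript, which need not be whole because kallisto divides reads shared by transcripts, with each transcript's length and effective length. No unit of depth other than these totals, 14563271 to 32764201 per library, was used, and their number limits the precision of low genes.

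Of the 109282 transcripts per file, 107987 were matched to GENCODE M21 and summed to 34547 genes. The 1295 that were not, 0.467% to 0.638% of the counts, were left out. TPM was computed from counts and effective lengths. CPM uses library totals with TMM factors. Counts were rounded and tested with edgeR 4.0.16 (quasi-likelihood, TMM, filterByExpr with a minimum count of 10; R 4.3.3) in a single fit of all 11 libraries with a coefficient per group, for 5 comparisons, adjusted by Benjamini-Hochberg over all 21200 genes or 58398 transcripts, at 0.05. The ± values are approximate standard errors, taken as the absolute log2 fold change divided by the square root of the edgeR F statistic. Alternatives were RLE size factors, DESeq2 1.42.0, no filter, a mean of at least 5 CPM, only the libraries compared, length-scaled counts, limma 3.58.1 on log2(TPM + 1) for genes averaging 1 TPM or more, and leaving out the 3 NTN libraries with most vomeronasal signal or each library in turn. Tables were handled in Python 3.11.15 with pandas 2.3.3. Promoter sequences and annotation come from the references named beside them.

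Genes were given in full where they passed in any comparison or were the most abundant of their role. The members and all lists were chosen with earlier results of these data known.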

Additional observations from a re-analysis of the deposited data

How the results depend on the processing

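The counts of WNT genes called moved with the processing, and the cause was not tested unless stated. In PodTOM NTN the 5 higher genes became 2 with limma on log2(TPM + 1) and 3 without the 3 NTN libraries with most vomeronasal signal, and ranged from 3 to 6 when single libraries were left out. The 8 lower became 5 with a mean of at least 5 CPM, where fewer genes are tested, and 3 without those 3 libraries (5 to 8 with single libraries left out). In MyD88pko the 2 higher became 4 with DESeq2, with no filter and with a mean of at least 5 CPM, 1 with length-scaled counts, 0 with limma and 0 without the 3 libraries (0 to 3). The 9 lower became 5 with length-scaled counts and 0 without the 3 libraries (2 to 9), which left a lone MyD88pko NTN library that is assumed to vary like the others. Each genotype comparison and the difference of responses went from 0 to 1, *Sfrp2*, with no filter, and stayed at 0 to 0 with single libraries left out. Higher transcripts went from 4 to 2 with only the libraries compared (0 to 4), and the 6 lower ranged from 1 to 5. The gene limit of 1 CPM kept 37 genes with plain totals and 41 when set in any 1 group.

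The only called reversals were those of *Gsk3b*, at -0.60 with length-scaled counts and -0.83 with limma in PodTOM and -0.52 with limma in MyD88pko, where weighting by transcript length replaces reads. Of 1322 log2 values of single genes under alternatives, 54 differed in sign, and 3 of these were called in either. Calls of single genes were lost 49 times in PodTOM and 63 in MyD88pko and gained 4 and 5 times. The median of all genes shifted by 0.13 and 0.15 with a mean of at least 5 CPM, by -0.24 with limma in PodTOM, and by 0.11 in MyD88pko without the 3 libraries. No paired analysis was possible because the replicate numbers follow accession order and pair no libraries.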
